A study of Mus musculus with 3 samples.

Results

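The vascular endothelial growth factor (VEGF) system was described through 10 genes: the ligands Vegfa, Vegfb, Vegfc, Vegfd and Pgf, the receptor genes Kdr, Flt1 and Flt4, and the co-receptor genes Nrp1 and Nrp2. They were taken by gene symbol from the 30360 genes listed in the files. All 10 were detected, against 23134 detected genes over all libraries. The RNA of single cells from the left ventricle of C56Bl6 mice was counted from its 3' end, in 3 libraries of 4 pooled samples each. HFpEF-FoxO1-sh and HFpEF-scr came from mice given 6 weeks of a High-Fat + L-NAME diet, where L-NAME inhibits nitric oxide synthases, a mouse model of heart failure in which the ejection fraction is preserved (HFpEF). Both also received an adeno-associated virus (AAV) for 4 weeks, with a hairpin against FoxO1 in HFpEF-FoxO1-sh and a scrambled hairpin in HFpEF-scr. Control mice had a standard diet for 10 weeks, and no vector is named for them. Diet and vector therefore differed together between HFpEF-scr and Control, and cannot be told apart. The labels name neither the serotype nor the promoter of the vector, nor the sex or age of the mice.

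With 1 library per group, no value below has a replicate, no test was possible, and every comparison is between libraries. After filters, 16854 cells in HFpEF-FoxO1-sh, 14567 in HFpEF-scr and 12757 in Control were kept, at a median of 6607 unique molecular identifiers (UMIs, counted RNA molecules) per cell in HFpEF-FoxO1-sh, 6520 in HFpEF-scr and 6889 in Control. The mitochondrial share differed between the libraries: 31.2% of barcodes in HFpEF-FoxO1-sh, 53.8% in HFpEF-scr and 56.9% in Control lay over the limit of 20%. Its part in the results was not tested. Foxo1 itself had 59.7 CPM (UMIs of a gene scaled to a total of 1e+06) over all kept cells of the library labelled HFpEF-FoxO1-sh, 56.2 CPM in HFpEF-scr and 61.1 CPM in Control. In endothelial cells Foxo1 had 69.9 CPM in HFpEF-FoxO1-sh, 79.9 CPM in HFpEF-scr and 74.0 CPM in Control, in endocardial cells 112 CPM in HFpEF-FoxO1-sh, 127 CPM in HFpEF-scr and 99.7 CPM in Control, and in lymphatic endothelial cells 139 CPM in HFpEF-FoxO1-sh, 142 CPM in HFpEF-scr and 136 CPM in Control. The intervals of HFpEF-FoxO1-sh and HFpEF-scr overlapped in each of these classes. Over all kept cells they did not, at 58.3 to 61.1 CPM in HFpEF-FoxO1-sh and 54.7 to 57.6 CPM in HFpEF-scr. Nor did they in fibroblasts, with 64.3 CPM (62.6 to 66.1) in HFpEF-FoxO1-sh and 58.9 CPM (57.0 to 60.8) in HFpEF-scr. Where the intervals parted, Foxo1 RNA was thus higher, not lower, in HFpEF-FoxO1-sh. Which cells the vector reached is not given, so the label could not be checked, and HFpEF-FoxO1-sh below means the library with that label. Cells were clustered without the 10 genes and named by markers, so that an endothelial-like cluster is one with endothelial markers. The suffix is left out from here on. In 12 classes every library had at least 50 cells. Cardiomyocytes were strained out before sequencing, per the labels' protocols.

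VEGF-A binds the receptor VEGFR2, the product of Kdr and the main signalling receptor of vessel growth, and VEGFR1, the product of Flt1, which binds it tightly and signals weakly. VEGF-B and placental growth factor (Pgf) bind VEGFR1. VEGF-C and VEGF-D act through VEGFR3, the product of Flt4, which drives the growth of lymphatic vessels. The neuropilins Nrp1 and Nrp2 bind VEGFs beside these receptors and also bind class 3 semaphorins. In the heart, cardiomyocytes are a known source of VEGF-A and VEGF-B for the capillaries that lie beside them.

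The bases before the start sites of the 3 receptor genes and of Vegfb are printed because the receptor genes mark the vessel lining and Vegfb had a pattern over classes like that of the gene beside it. The sequences are from RefSeq on GRCm38.p6, the assembly also called mm10. Each is 250 bases long, ends at the base before the start site that RefSeq gives, and reads 5′ to 3′ on the strand of the gene. The gene limits given below are from GENCODE, which places some starts elsewhere: the Flt4 window lies inside the Flt4 limits, and the Kdr window overlaps the last bases of the Kdr limits. Capitals mark the GC box (GGGCGG, or CCGCCC on the other strand) and the core that ETS factors bind (GGAAG, or CTTCC), where found.
Kdr, chr5:75978456-75978705, minus strand: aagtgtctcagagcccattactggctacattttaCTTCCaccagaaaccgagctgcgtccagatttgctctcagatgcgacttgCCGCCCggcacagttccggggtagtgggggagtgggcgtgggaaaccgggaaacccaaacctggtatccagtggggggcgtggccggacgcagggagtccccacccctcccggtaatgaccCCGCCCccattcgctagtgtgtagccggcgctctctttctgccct
Flt1, chr5:147726012-147726261, minus strand: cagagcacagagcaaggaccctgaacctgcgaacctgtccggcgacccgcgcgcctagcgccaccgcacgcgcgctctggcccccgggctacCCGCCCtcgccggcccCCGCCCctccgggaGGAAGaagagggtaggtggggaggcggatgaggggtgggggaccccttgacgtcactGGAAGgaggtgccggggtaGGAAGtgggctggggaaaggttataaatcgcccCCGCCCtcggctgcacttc
Flt4, chr11:49609429-49609678, plus strand: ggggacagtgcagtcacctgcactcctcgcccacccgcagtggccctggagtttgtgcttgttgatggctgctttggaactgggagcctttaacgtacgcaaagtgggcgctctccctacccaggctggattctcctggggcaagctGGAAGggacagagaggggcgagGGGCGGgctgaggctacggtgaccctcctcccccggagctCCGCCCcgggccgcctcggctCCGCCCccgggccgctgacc
Vegfb, chr19:6987652-6987901, minus strand: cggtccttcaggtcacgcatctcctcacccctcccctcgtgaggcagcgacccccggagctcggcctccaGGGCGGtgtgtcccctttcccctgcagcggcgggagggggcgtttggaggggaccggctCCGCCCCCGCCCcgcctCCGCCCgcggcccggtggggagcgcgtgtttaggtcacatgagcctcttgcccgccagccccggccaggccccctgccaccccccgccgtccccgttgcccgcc

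The Kdr window held 2 GC boxes and 1 ETS core, the Flt1 window 3 of each, and the Flt4 window 3 GC boxes and 1 ETS core. The Vegfb window held 4 GC boxes, with a pair that touch in the middle of the window, and no ETS core. Over all 32851 windows of the same length, 32.7% held a GC box and 64.1% an ETS core on either strand, so neither is rare. The letters GTAAACA, which FoxO factors bind, or their reverse TGTTTAC were in none of the 12 windows of the 10 genes, against 3.17% of all windows. ACGTG, the core of the hypoxia response element, or its reverse CACGT was in 1 of the 12, at a second start site of Vegfa, against 16.6% of all. A window without a match says only that these letters are not in it.

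Among ligands, fibroblasts held most of the RNA. Of all Vegfa UMIs, they carried 85.9% in HFpEF-FoxO1-sh, 82.6% in HFpEF-scr and 84.6% in Control, while they made up 63.2% of kept cells in HFpEF-FoxO1-sh, 63.9% in HFpEF-scr and 66.3% in Control. The shares depend on which cells the dissociation left. On the CPM scale, Vegfa (ENSMUSG00000023951; mm10, chromosome 17, 46016993 to 46032369, minus strand) had 45.2 CPM in HFpEF-FoxO1-sh, 53.6 CPM in HFpEF-scr and 51.0 CPM in Control in fibroblasts. Neutrophils had 159 CPM in HFpEF-FoxO1-sh, 76.9 CPM in HFpEF-scr and 37.6 CPM in Control, from 50 UMIs in HFpEF-FoxO1-sh, 55 in HFpEF-scr and 14 in Control. They led the classes in HFpEF-FoxO1-sh and HFpEF-scr, and fibroblasts led in Control. Endocardial, endothelial and smooth muscle cells lay between 17.3 and 27.0 CPM and overlapped in range. Macrophages had between 2.08 and 2.80 CPM and T cells between 4.33 and 9.18 CPM. The class named T cell was mixed. When cells were clustered at resolution 2, a cluster of 552 cells was named natural killer, beside T cell clusters of 437 and 73 cells. Neutrophils carried fibroblast marker RNA at 5913 CPM in HFpEF-FoxO1-sh, 18640 CPM in HFpEF-scr and 25308 CPM in Control, summed over 12 markers, and its part in their Vegfa values was not tested.

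Vegfb (ENSMUSG00000024962; chromosome 19, 6982473 to 6987651, minus strand) was spread over many classes. Smooth muscle cells had 76.2 CPM in HFpEF-FoxO1-sh, 67.0 CPM in HFpEF-scr and 65.9 CPM in Control, and lymphatic endothelial cells, which line the vessels that drain tissue fluid, had 52.9 CPM in HFpEF-FoxO1-sh, 60.0 in HFpEF-scr and 69.8 in Control. These ranges overlapped. Endocardial cells, the lining of the chambers, came next with 45.2 CPM in HFpEF-FoxO1-sh, 46.8 CPM in HFpEF-scr and 47.4 CPM in Control, above fibroblasts and macrophages in every library. Endothelial cells of the vessel wall had 16.8 CPM in HFpEF-FoxO1-sh, 13.4 CPM in HFpEF-scr and 11.5 CPM in Control, close to the 7.22 to 14.2 CPM of T cells. Outside the named classes, the unnamed cluster led by Ccl2 and Mt2 had 108 CPM in HFpEF-FoxO1-sh, 65.0 in HFpEF-scr and 113 in Control. It was above smooth muscle cells in HFpEF-FoxO1-sh and Control, from 173 cells in HFpEF-FoxO1-sh, 88 in HFpEF-scr and 53 in Control. A Vegfb UMI was seen in 32 of these cells in HFpEF-FoxO1-sh, 29 in HFpEF-scr and 16 in Control. The cluster's best match was 1 fibroblast marker, and whether it mixes kinds of cells was not tested. Vegfb starts 259 bases from the end of its neighbour Dnajc4 on the same strand, and the window printed above covers 250 of those bases.

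Vegfc (ENSMUSG00000031520; chromosome 8, 54077606 to 54187096, plus strand) was highest in endothelial cells, with 133 CPM in HFpEF-FoxO1-sh, 104 CPM in HFpEF-scr and 93.5 CPM in Control. Fibroblasts followed with 27.6 CPM in HFpEF-FoxO1-sh, 28.6 CPM in HFpEF-scr and 23.9 CPM in Control, and endocardial cells with 25.1 CPM in HFpEF-FoxO1-sh, 21.2 in HFpEF-scr and 21.2 in Control. Endothelial cells were above all other named classes in each library. The unnamed cluster led by Rgs5 and Sema3g, which has endothelial markers, overlapped them with 114 CPM in HFpEF-FoxO1-sh, 120 CPM in HFpEF-scr and 97.7 CPM in Control. Within them, the arterial sub-cluster led by Aif1l, Eps8l2 and Gkn3 had 399 CPM in HFpEF-FoxO1-sh, 395 CPM in HFpEF-scr and 347 CPM in Control. That sub-cluster also had the most Vegfa of the endothelial sub-clusters, at 105 CPM in HFpEF-FoxO1-sh, 82.0 in HFpEF-scr and 79.4 in Control. Lymphatic endothelial cells, which carry the receptor for VEGF-C, had between 2.38 and 4.04 CPM of the ligand, near the 1.05 to 3.34 CPM of T cells.

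Vegfd (ENSMUSG00000031380; chromosome X, 164373378 to 164402650, plus strand) had 28.7 CPM in HFpEF-FoxO1-sh, 21.6 CPM in HFpEF-scr and 27.1 CPM in Control in fibroblasts. Fibroblasts held 91.6% of its UMIs in HFpEF-FoxO1-sh, 86.2% in HFpEF-scr and 85.3% in Control. Endocardial cells had between 13.7 and 14.8 CPM, and endothelial cells between 0.761 and 1.68 CPM. The B cell class had 0.887 CPM in HFpEF-FoxO1-sh, 30.8 in HFpEF-scr and 22.6 in Control, above fibroblasts in HFpEF-scr only. Its Vegfd UMIs, 2 in HFpEF-FoxO1-sh, 37 in HFpEF-scr and 25 in Control, were all in a cluster rich in fibroblast marker RNA. The other B cell cluster had no Vegfd UMI in any library.

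Pgf (ENSMUSG00000004791; chromosome 12, 85166635 to 85177790, minus strand) was high in fibroblasts, with 101 CPM in HFpEF-FoxO1-sh, 79.6 CPM in HFpEF-scr and 96.3 CPM in Control, and in lymphatic endothelial cells, with 80.5 CPM in HFpEF-FoxO1-sh, 95.7 in HFpEF-scr and 101 in Control. The order of these classes changed between libraries. The B cell class, which held a cluster rich in fibroblast RNA, had 7.10 CPM in HFpEF-FoxO1-sh, 45.0 in HFpEF-scr and 103 in Control. Erythroid cells had 50.7 CPM in HFpEF-FoxO1-sh, 51.6 in HFpEF-scr and 79.1 in Control. Median doublet scores, which are higher where barcodes look more like mixed cells, were 0.201 and 0.142 in the erythroid clusters. The endothelial cluster had 0.0784. The part of RNA from other cells in the erythroid values was not tested. Endothelial cells had 57.7 CPM in HFpEF-FoxO1-sh, 32.2 CPM in HFpEF-scr and 59.4 CPM in Control. T cells had 1 Pgf UMI in HFpEF-FoxO1-sh and none in HFpEF-scr and Control, where a count of 0 allows up to 2.17 and 2.50 CPM.

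**Figure D1:**
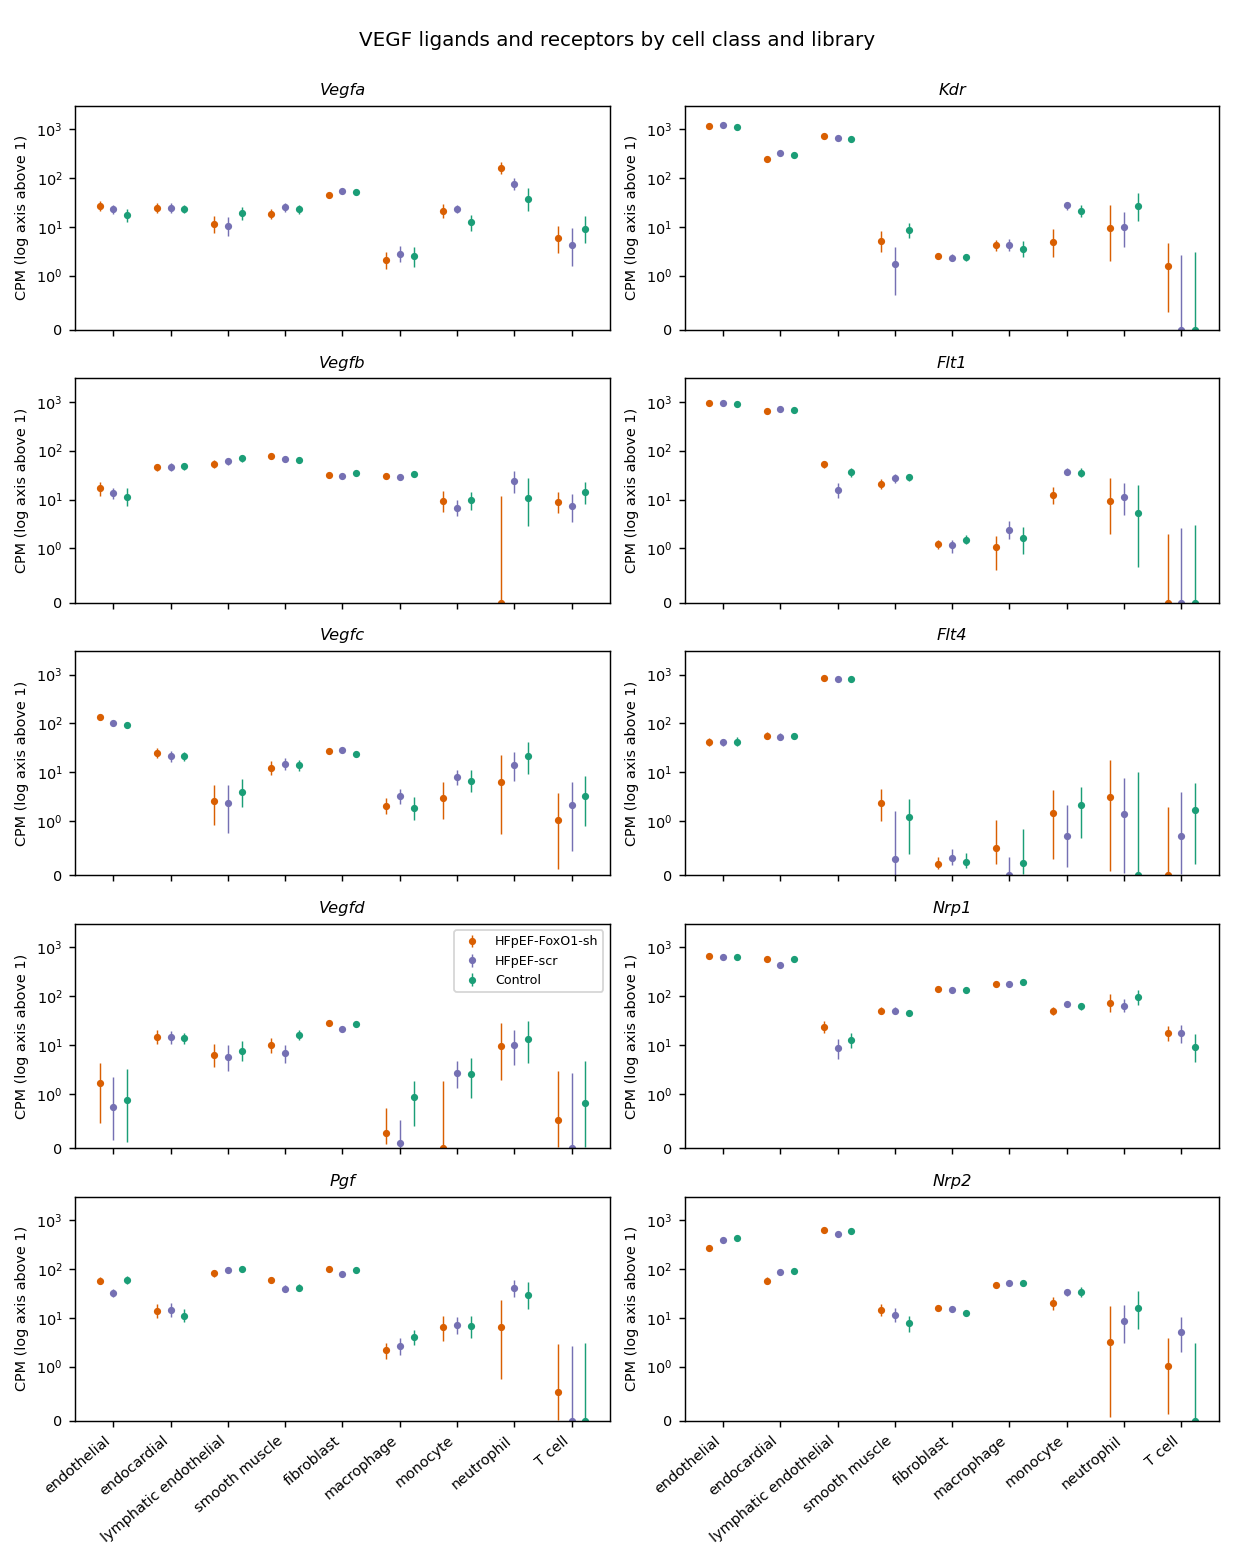
Levels of the 10 genes in CPM (UMIs of the gene scaled to a class total of 1e+06, log axis above 1 CPM) in 9 classes and 3 libraries, with exact Poisson 95% intervals that cover counting error only. The receptor genes are far above other classes in endothelial, endocardial or lymphatic cells, while the ligands spread over fibroblasts, smooth muscle and vessel lining.

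Fibroblasts were not uniform in their ligands. In the cluster led by Wif1 and Prss35, Vegfa had 116 CPM in HFpEF-FoxO1-sh, 118 CPM in HFpEF-scr and 134 CPM in Control, while Pgf had only 25.9 CPM in HFpEF-FoxO1-sh, 18.5 in HFpEF-scr and 23.8 in Control. The cluster led by Cd248 and Sema3c had the most Pgf, with 163 CPM in HFpEF-FoxO1-sh, 140 CPM in HFpEF-scr and 168 CPM in Control. Vegfd was highest in the cluster led by Igfbp3 and Fst, with 60.0 CPM in HFpEF-FoxO1-sh, 48.6 CPM in HFpEF-scr and 51.3 CPM in Control. It was low in the cluster led by Cilp and Dio2, with 3.93 CPM in HFpEF-FoxO1-sh, 4.02 in HFpEF-scr and 5.73 in Control, and in the one led by Necab1 and Fap, with 8.78 CPM in HFpEF-FoxO1-sh, 5.59 in HFpEF-scr and 5.58 in Control. The cluster with the most Vegfa was thus the one with the least Pgf, in all 3 libraries. Vegfc lay between 15.3 and 38.8 CPM and Vegfb between 22.9 and 42.3 CPM over the 8 clusters and 3 libraries, a narrower span than that of the other ligands.

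**Figure D2:**
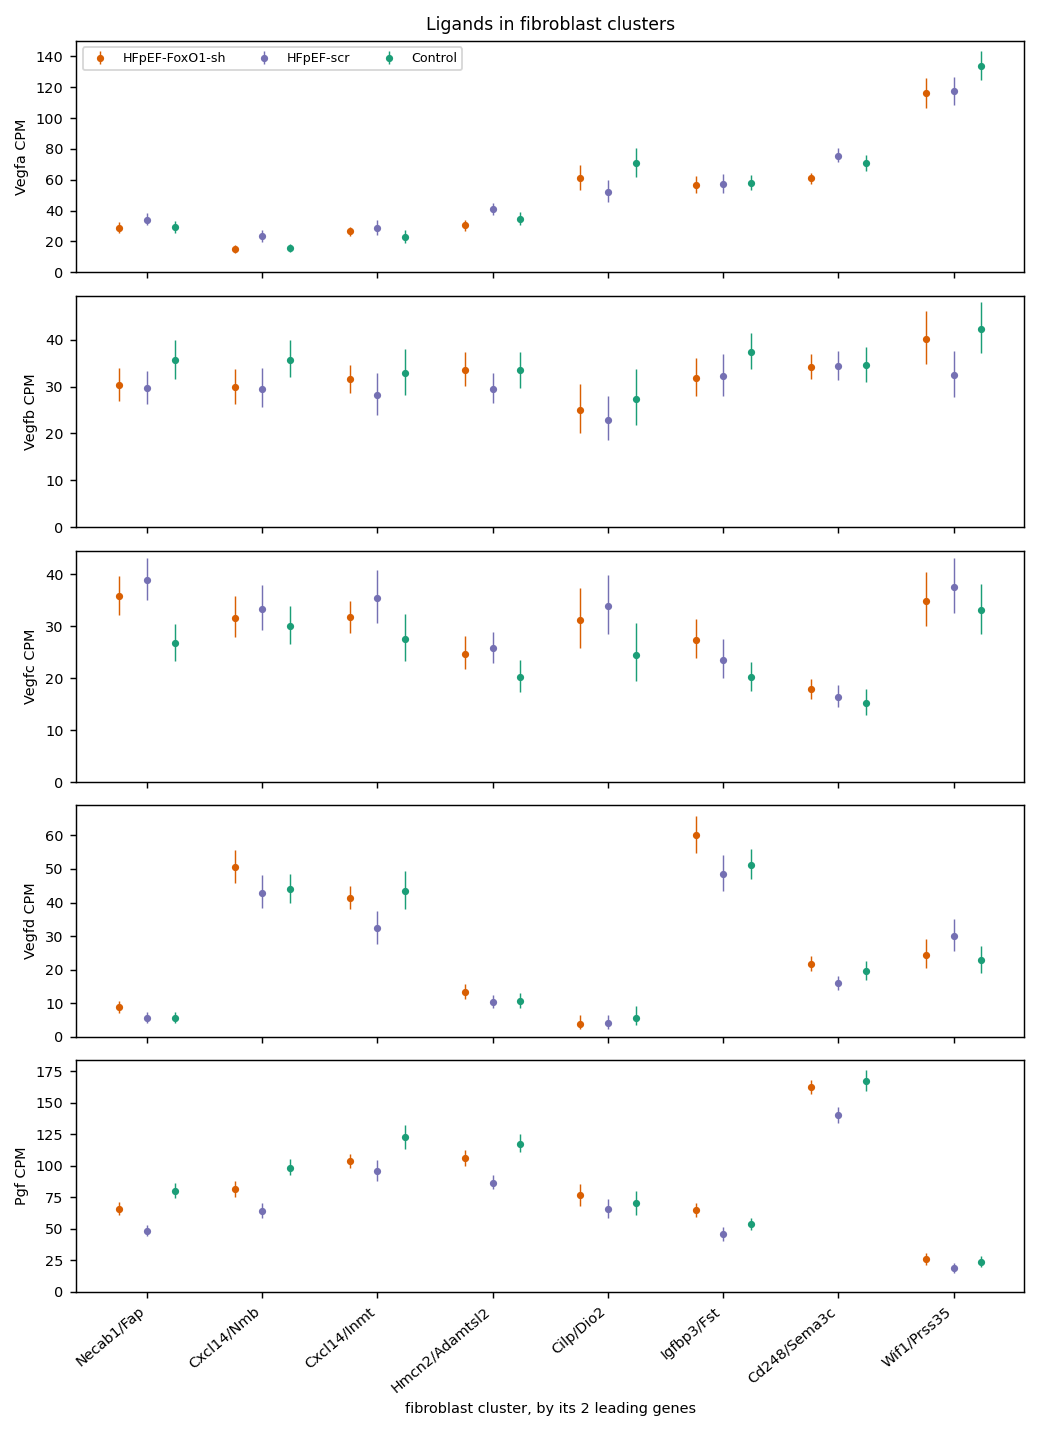
Levels of the 5 ligands in CPM in 8 fibroblast clusters, each named by leading genes, for the 3 libraries with exact Poisson 95% intervals. Vegfa peaks in the Wif1 and Prss35 cluster and Pgf in the Cd248 and Sema3c cluster in every library.

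Kdr (ENSMUSG00000062960; chromosome 5, 75932827 to 75978458, minus strand) had 1153 CPM in HFpEF-FoxO1-sh, 1225 CPM in HFpEF-scr and 1096 CPM in Control in endothelial cells. Lymphatic endothelial cells had 708 CPM in HFpEF-FoxO1-sh, 663 CPM in HFpEF-scr and 625 CPM in Control, and endocardial cells 248 CPM in HFpEF-FoxO1-sh, 318 in HFpEF-scr and 288 in Control. The order endothelial, lymphatic, endocardial held in each library with no overlap of ranges. Mesothelial cells, which cover the outer surface of the heart and were too few for a comparison, had 427 CPM in HFpEF-FoxO1-sh, 502 CPM in HFpEF-scr and 402 CPM in Control, with 91 cells in HFpEF-FoxO1-sh, 45 in HFpEF-scr and 108 in Control. Fibroblasts had between 2.32 and 2.58 CPM. A Kdr UMI was seen in 80.0% of endothelial cells in HFpEF-FoxO1-sh, 90.3% in HFpEF-scr and 86.2% in Control, at median depths of 7080 UMIs in HFpEF-FoxO1-sh, 8894 in HFpEF-scr and 9145 in Control. After thinning every cell to 1000 UMIs, these shares were 56.3% in HFpEF-FoxO1-sh, 57.9% in HFpEF-scr and 53.7% in Control. T cells, which should lack Kdr, had a UMI in 0.221% of cells in HFpEF-FoxO1-sh, 0% in HFpEF-scr and 0% in Control, at 4122 UMIs in HFpEF-FoxO1-sh, 4435 in HFpEF-scr and 4815.5 in Control.

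Flt1 (ENSMUSG00000029648; chromosome 5, 147561604 to 147726011, minus strand) had 934 CPM in HFpEF-FoxO1-sh, 944 CPM in HFpEF-scr and 883 CPM in Control in endothelial cells, and 640 CPM in HFpEF-FoxO1-sh, 703 in HFpEF-scr and 668 in Control in endocardial cells. Both were above all other named classes in each library. Lymphatic endothelial cells had 52.5 CPM in HFpEF-FoxO1-sh, 15.7 CPM in HFpEF-scr and 36.3 CPM in Control, and fibroblasts between 1.17 and 1.51 CPM. No T cell had an Flt1 UMI, which allows up to 1.57 CPM in HFpEF-FoxO1-sh, 2.17 CPM in HFpEF-scr and 2.50 CPM in Control. Flt1 also encodes a soluble form that binds ligands without signalling. The annotation gives coding transcripts with 2 different 3' ends, but the files hold 1 value for the gene, so the forms cannot be told apart here. Unnamed clusters held a further 32.9% of Flt1 UMIs in HFpEF-FoxO1-sh, 29.8% in HFpEF-scr and 32.1% in Control, and 27.6% of Kdr UMIs in HFpEF-FoxO1-sh, 27.2% in HFpEF-scr and 27.3% in Control. The largest unnamed cluster, led by Rgs5, Sema3g and Sox17, had 225 cells in HFpEF-FoxO1-sh, 251 in HFpEF-scr and 223 in Control. It carried 8 endothelial markers among its leading 50 genes but had a pericyte marker, Rgs5, in front. Its median doublet score was 0.203, beside 0.0784 in the endothelial cluster, and the part of doublets in its values was not tested. Its Kdr was 741 CPM in HFpEF-FoxO1-sh, 830 CPM in HFpEF-scr and 726 CPM in Control, and its Flt1 was 728 CPM in HFpEF-FoxO1-sh, 747 CPM in HFpEF-scr and 760 CPM in Control.

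Flt4 (ENSMUSG00000020357; chromosome 11, 49609263 to 49652739, plus strand) had 834 CPM in HFpEF-FoxO1-sh, 808 CPM in HFpEF-scr and 809 CPM in Control in lymphatic endothelial cells. Endocardial cells had 55.8 CPM in HFpEF-FoxO1-sh, 53.1 CPM in HFpEF-scr and 55.1 CPM in Control, and endothelial cells 42.1 CPM in HFpEF-FoxO1-sh, 41.1 in HFpEF-scr and 42.5 in Control. The lymphatic class held 81.4% of Flt4 UMIs in HFpEF-FoxO1-sh, 78.4% in HFpEF-scr and 80.3% in Control, with 1.73% of the cells in HFpEF-FoxO1-sh, 1.76% in HFpEF-scr and 2.20% in Control. Of the 3 receptor genes, it was the one with the smallest differences between libraries in its main class.

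Nrp1 (ENSMUSG00000025810; chromosome 8, 128358604 to 128503363, plus strand) was found in vessel lining, macrophages and fibroblasts alike. Endothelial cells had 662 CPM in HFpEF-FoxO1-sh, 643 CPM in HFpEF-scr and 638 CPM in Control, and endocardial cells 567 CPM in HFpEF-FoxO1-sh, 434 in HFpEF-scr and 581 in Control. Macrophages had 176 CPM in HFpEF-FoxO1-sh, 174 CPM in HFpEF-scr and 192 CPM in Control, and fibroblasts 141 CPM in HFpEF-FoxO1-sh, 134 in HFpEF-scr and 136 in Control. Fibroblasts, the most numerous class, held 56.8% of Nrp1 UMIs in HFpEF-FoxO1-sh, 49.9% in HFpEF-scr and 50.5% in Control. Among macrophages, the cluster with the resident markers Fcna, Vsig4 and Timd4 had 240 CPM in HFpEF-FoxO1-sh, 231 CPM in HFpEF-scr and 265 CPM in Control, against 126 CPM in HFpEF-FoxO1-sh, 131 in HFpEF-scr and 128 in Control in the cluster led by genes of antigen presentation. Lymphatic endothelial cells were low, with 23.3 CPM in HFpEF-FoxO1-sh, 8.57 CPM in HFpEF-scr and 12.5 CPM in Control, beside 9.18 to 17.3 CPM in T cells.

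Nrp2 (ENSMUSG00000025969; chromosome 1, 62703285 to 62818695, plus strand) was highest in lymphatic endothelial cells, which were low in Nrp1. They had 630 CPM in HFpEF-FoxO1-sh, 521 CPM in HFpEF-scr and 583 CPM in Control, and endothelial cells 273 CPM in HFpEF-FoxO1-sh, 393 in HFpEF-scr and 433 in Control. Endocardial cells had 57.6 CPM in HFpEF-FoxO1-sh, 84.6 CPM in HFpEF-scr and 91.7 CPM in Control, a range that overlapped that of Schwann cells. In lymphatic cells a Flt4 UMI was seen in 93.8% of cells in HFpEF-FoxO1-sh, 96.5% in HFpEF-scr and 96.8% in Control, a Nrp2 UMI in 82.8% in HFpEF-FoxO1-sh, 83.2% in HFpEF-scr and 82.9% in Control, and both in 80.4% in HFpEF-FoxO1-sh, 81.6% in HFpEF-scr and 81.5% in Control. The joint share was thus close to the Nrp2 share. After thinning to 1000 UMIs both were seen in 28.5% of cells in HFpEF-FoxO1-sh, 23.0% in HFpEF-scr and 28.1% in Control. T cells had a Nrp2 UMI in 0.442% of cells in HFpEF-FoxO1-sh, 1.66% in HFpEF-scr and 0% in Control, and a Flt4 UMI in at most 0.855% in any library. Nrp2 overlaps another gene on its strand, Gm37121, and Nrp1 overlaps Mir1903, so reads could be shared there.

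The vessel lining was clustered again to see which cells carried the receptors. Kdr was highest in the sub-cluster led by Cox4i2 and Cxcl12, with 1894 CPM in HFpEF-FoxO1-sh, 1743 CPM in HFpEF-scr and 1708 CPM in Control. In the arterial sub-cluster it had 218 CPM in HFpEF-FoxO1-sh, 274 in HFpEF-scr and 281 in Control, while Flt1 there had 776 CPM in HFpEF-FoxO1-sh, 965 CPM in HFpEF-scr and 1005 CPM in Control. Arterial cells thus kept Flt1 near the level of the class with much less Kdr, and their Nrp2 was between 4.90 and 25.9 CPM. In the endocardium, the sub-cluster led by Hapln1, Nptx1 and Wnt9b had the most Flt1, with 1264 CPM in HFpEF-FoxO1-sh, 1209 CPM in HFpEF-scr and 1140 CPM in Control. It had little Nrp1, between 32.0 and 62.7 CPM, whereas the sub-cluster led by Adh6b and Apoc1 had 750 CPM in HFpEF-FoxO1-sh, 618 in HFpEF-scr and 694 in Control. The same Hapln1 sub-cluster held 79.5% of endocardial Pgf UMIs in HFpEF-FoxO1-sh, 89.7% in HFpEF-scr and 80.4% in Control, with 7.39% of the endocardial cells in HFpEF-FoxO1-sh, 7.36% in HFpEF-scr and 6.13% in Control.

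Lymphatic cells also differed among themselves. Flt4 had 1037 CPM in HFpEF-FoxO1-sh, 1006 CPM in HFpEF-scr and 1088 CPM in Control in the sub-cluster led by Gm21541, Ccl21a and Reln, against 568 CPM in HFpEF-FoxO1-sh, 555 in HFpEF-scr and 478 in Control in the one led by Klrb1f and Clca3a1. Nrp2 went the same way, with 717 CPM in HFpEF-FoxO1-sh, 572 CPM in HFpEF-scr and 752 CPM in Control in the first, and 372 CPM in HFpEF-FoxO1-sh, 287 in HFpEF-scr and 245 in Control in the second. A small sub-cluster led by Ptx3, with 19 cells in HFpEF-FoxO1-sh, 19 in HFpEF-scr and 30 in Control, had the most Nrp2, at 1223 CPM in HFpEF-FoxO1-sh, 1229 CPM in HFpEF-scr and 1138 CPM in Control. It also had the most Pgf of the lymphatic sub-clusters, with 240 CPM in HFpEF-FoxO1-sh, 345 in HFpEF-scr and 476 in Control, and so held 26.8% of the Pgf UMIs of the lymphatic class in HFpEF-FoxO1-sh, 27.4% in HFpEF-scr and 53.0% in Control.

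**Figure D3:**
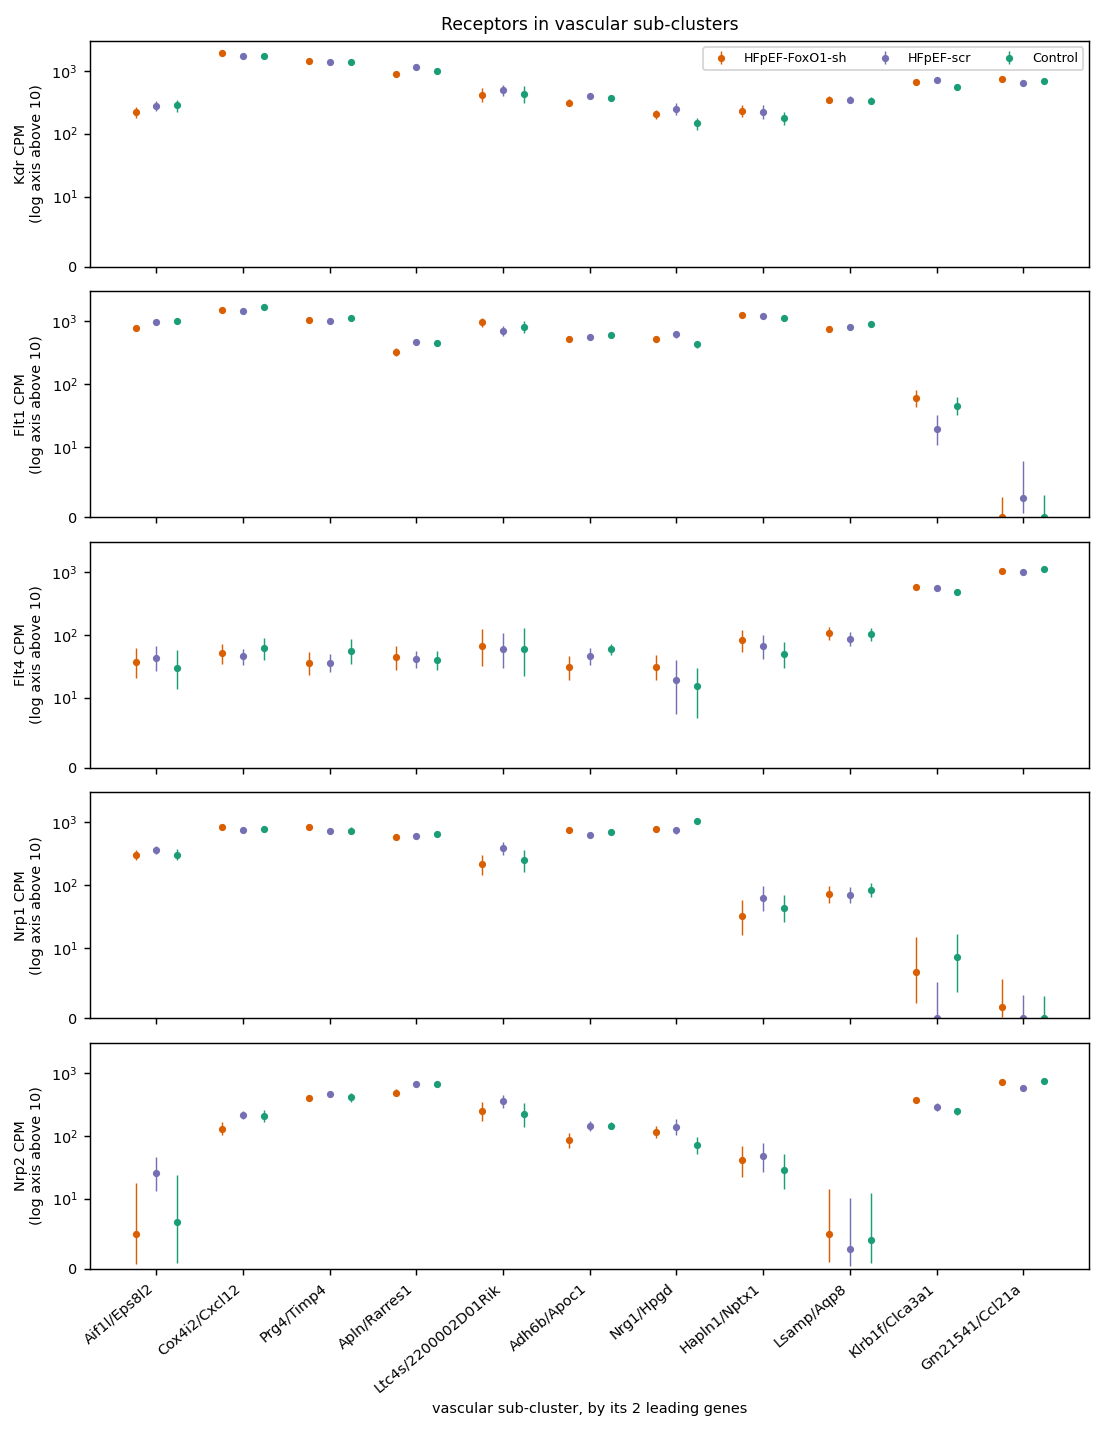
Levels of Kdr, Flt1, Flt4, Nrp1 and Nrp2 in CPM in 11 sub-clusters of the vessel lining, each named by 2 leading genes, for the 3 libraries with exact Poisson 95% intervals. Kdr is low and Flt1 high in the arterial and the Hapln1 sub-clusters, and Flt4 and Nrp2 stand high together in the lymphatic ones.

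The first comparison is between HFpEF-scr and Control, which differ in diet and vector. A member passed the fold where its CPM ratio reached 1.5 in either direction and both libraries together held at least 50 UMIs, and each ratio has a 95% interval for counting error only. In endothelial cells 1 of 9 measured members passed this fold, beside 6.39% of all measured genes, and in endocardial cells 0 of 10, beside 6.52%. In fibroblasts 0 of 9 did, beside 3.79% of all genes. The member that passed in endothelial cells was Pgf, with a ratio of 0.543 (0.422 to 0.697) for HFpEF-scr over Control, from 127 UMIs in HFpEF-scr and 134 UMIs in Control. It was not past the fold with up to 50% mitochondrial UMIs, at 0.907, with at most 10%, at 0.707, or with each cell classed singly, at 0.684. The receptor genes differed little there: the ratio was 1.12 (1.06 to 1.17) for Kdr, 1.07 (1.01 to 1.13) for Flt1 and 0.966 for Flt4. The median log2 ratio of the members in endothelial cells was 0.10, beside 0.02 over all genes.

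Most differences among the members between HFpEF-scr and Control were thus within 1.5-fold. In endocardial cells Nrp1 was lower in HFpEF-scr, at a ratio of 0.746 (0.696 to 0.801), and Kdr was at 1.10 (1.01 to 1.20). Nrp1 varied over endocardial sub-clusters, and the Adh6b sub-cluster made up 41.1% of endocardial cells in HFpEF-scr and 52.4% in Control. Within that sub-cluster the Nrp1 ratio was 0.890 (0.806 to 0.982), and within the one led by Nrg1 and Hpgd it was 0.708 (0.611 to 0.818). In fibroblasts the ligands went different ways. HFpEF-scr had less Pgf than Control, at a ratio of 0.826 (0.796 to 0.858), and less Vegfd at 0.797 (0.742 to 0.857) and Vegfb at 0.864 (0.812 to 0.919). Vegfc was higher at 1.20 (1.12 to 1.29), and Vegfa was at 1.05 (1.00 to 1.10).

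The second comparison is between HFpEF-FoxO1-sh and HFpEF-scr, which share the diet and differ in the hairpin. It uses the same HFpEF-scr library as the first, so the 2 sets of ratios are not independent and a low value in HFpEF-scr moves them in opposite directions. In endothelial cells 1 of 9 measured members passed the fold, beside 7.1% of all genes, and again it was Pgf. In endocardial cells 0 of 10 passed, beside 5.92%, and in fibroblasts 0 of 9, beside 4.03%. Endothelial Pgf had 137 UMIs in HFpEF-FoxO1-sh and 127 UMIs in HFpEF-scr, or a CPM ratio of 1.79 (1.40 to 2.30), and with at most 10% mitochondrial UMIs the ratio was 1.40, inside the fold. Nrp2 was lower in HFpEF-FoxO1-sh at 0.695 (0.633 to 0.762), just inside the fold. Kdr was at 0.941 (0.898 to 0.987), Flt1 at 0.990 (0.939 to 1.04) and Vegfc at 1.29 (1.11 to 1.49). The arterial sub-cluster, which had the most Vegfc, was 26.2% of endothelial cells in HFpEF-FoxO1-sh and 19.7% in HFpEF-scr, and within it Vegfc stood at 399 CPM in HFpEF-FoxO1-sh and 395 CPM in HFpEF-scr. Cells with up to 50% mitochondrial UMIs, where arterial cells formed a class of their own, gave 0.786 (0.689 to 0.896) for endothelial Vegfc, and cells classed singly gave 0.978.

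In endocardial cells too, HFpEF-FoxO1-sh had less Nrp2 than HFpEF-scr, at a ratio of 0.680 (0.553 to 0.835). With at most 10% mitochondrial UMIs it was 1.02 in endocardial cells and 0.426 in endothelial cells, and after thinning to 1000 UMIs it was 0.624 in endocardial cells and 0.985 in endothelial cells, so neither held its size under all settings. Inside the endothelial class, the sub-cluster led by Apln and Rarres1 had 0.716 (0.617 to 0.829). In lymphatic endothelial cells, which had the most Nrp2, the ratio was 1.21 (1.12 to 1.31), on the other side of 1, and 0.998 after thinning. The difference between these ratios was not tested. Kdr in endocardial cells was lower in HFpEF-FoxO1-sh at 0.780 (0.705 to 0.863), and Nrp1 was higher at 1.31 (1.21 to 1.41). The median mitochondrial share of endocardial cells was 9.16% in HFpEF-FoxO1-sh and 13.4% in HFpEF-scr, and its part in these ratios was not tested. In endothelial cells it was 15.7% in HFpEF-FoxO1-sh and 15.5% in HFpEF-scr.

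Fibroblast Pgf and Vegfd were higher in HFpEF-FoxO1-sh than in HFpEF-scr, at ratios of 1.27 (1.23 to 1.32) and 1.33 (1.24 to 1.42), and Vegfa was lower at 0.844 (0.805 to 0.885). Vegfb was at 1.06 (0.998 to 1.12) and Vegfc at 0.965 (0.906 to 1.03). Pgf was lower in HFpEF-scr than in both other libraries in all 8 fibroblast clusters. Over these clusters its ratio ran between 1.08 and 1.42 for HFpEF-FoxO1-sh over HFpEF-scr, and between 0.606 and 0.934 for HFpEF-scr over Control. Vegfa was lower in HFpEF-FoxO1-sh than in HFpEF-scr in 7 of the 8, the exception being the Cilp cluster at 1.17 (0.969 to 1.41). Median mitochondrial shares of fibroblasts were 8.67% in HFpEF-FoxO1-sh, 12.2% in HFpEF-scr and 12.5% in Control. Among fibroblasts with at most 10% mitochondrial UMIs, the Pgf ratio was 1.37 for HFpEF-FoxO1-sh over HFpEF-scr and 0.804 for HFpEF-scr over Control.

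**Figure D4:**
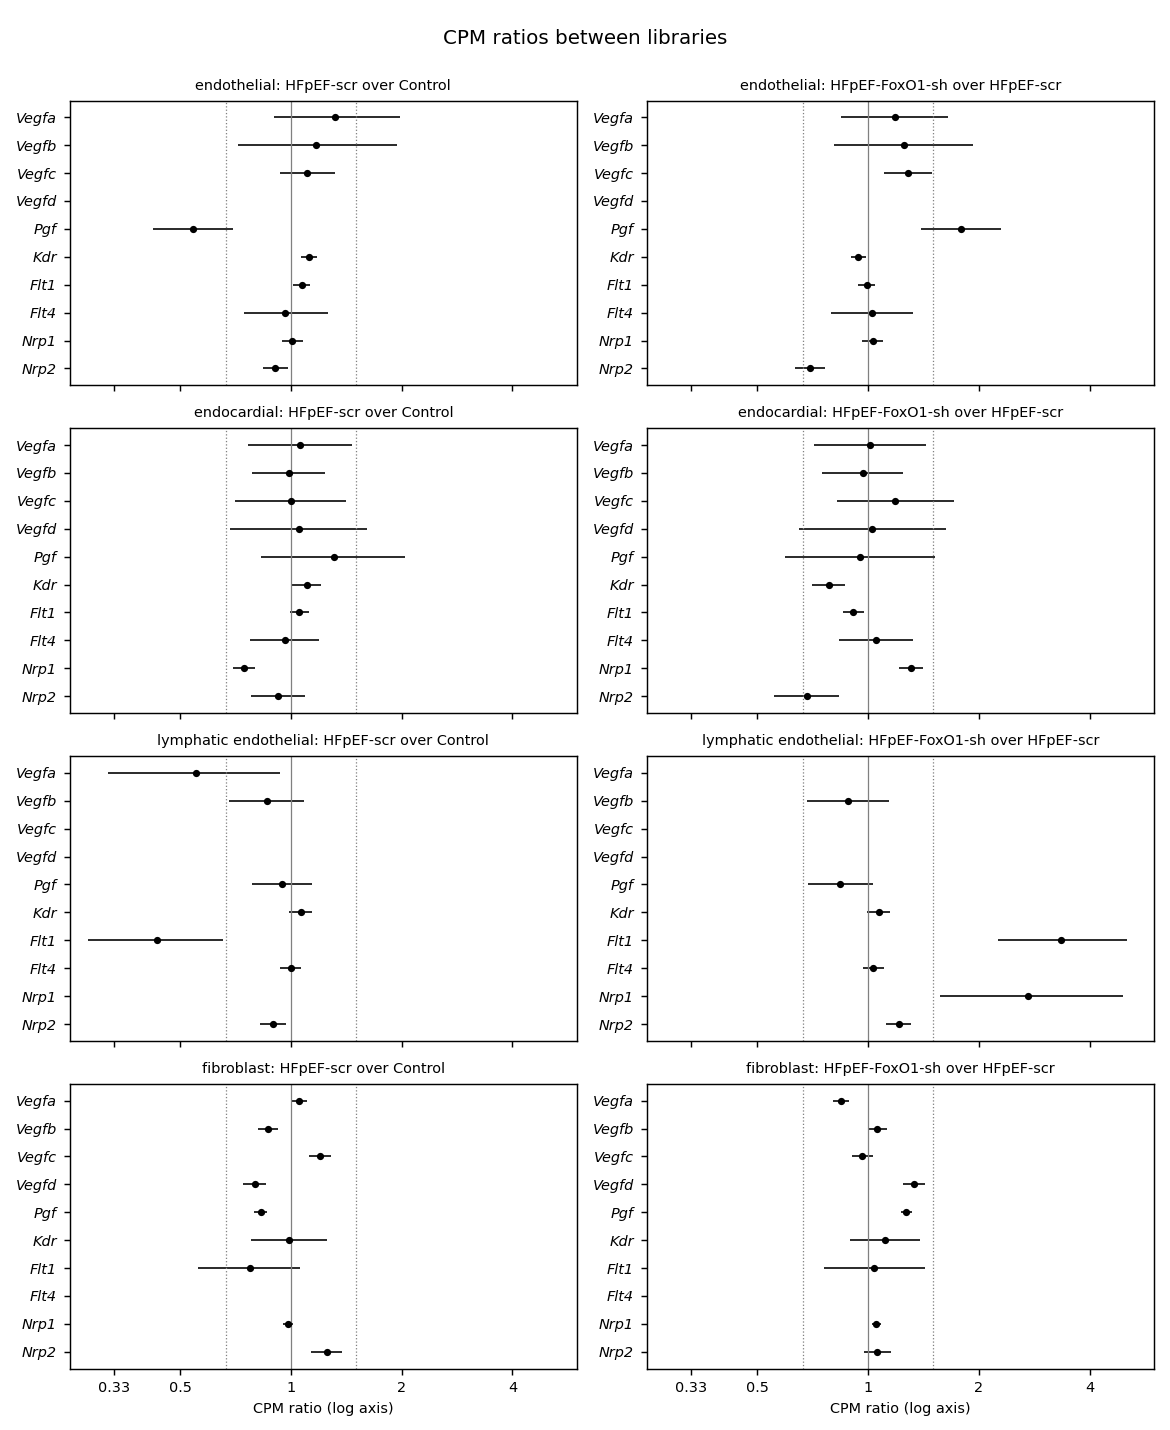
CPM ratios of the measured members with 95% intervals for counting error, in endothelial, endocardial, lymphatic and fibroblast cells. The left side shows HFpEF-scr over Control and the right side HFpEF-FoxO1-sh over HFpEF-scr, and most points lie inside the dotted lines at 1.5-fold, with Pgf in endothelial cells outside on both sides.

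Endothelial Pgf came mostly from 1 sub-cluster. The cells led by Apln and Rarres1 held 86.9% of the class's Pgf UMIs in HFpEF-FoxO1-sh, 70.1% in HFpEF-scr and 88.1% in Control. They were 16.4% of endothelial cells in HFpEF-FoxO1-sh, 16.3% in HFpEF-scr and 31.8% in Control. Without them the endothelial ratio was 0.763 for HFpEF-FoxO1-sh over HFpEF-scr and 1.08 for HFpEF-scr over Control. Neither difference past the fold was thus found in the other endothelial cells, which held few Pgf UMIs. In the unnamed cluster led by Rgs5 and Sema3g, Pgf had 61.0 CPM in HFpEF-FoxO1-sh, 49.8 CPM in HFpEF-scr and 57.0 CPM in Control, again lowest in HFpEF-scr but with overlapping intervals. The median doublet score of that cluster was 0.203, and the part of doublets in its Pgf was not tested. Within the Apln sub-cluster Pgf had 226 CPM in HFpEF-FoxO1-sh, 92.7 CPM in HFpEF-scr and 131 CPM in Control. HFpEF-FoxO1-sh stood at a ratio of 2.44 (1.84 to 3.24) over HFpEF-scr, and HFpEF-scr at 0.706 (0.530 to 0.936) over Control, from 50 cells of the endothelial class in HFpEF-FoxO1-sh, 62 in HFpEF-scr and 69 in Control and 1 further cell in HFpEF-scr. Kdr in these cells had 884 CPM in HFpEF-FoxO1-sh, 1131 CPM in HFpEF-scr and 997 CPM in Control. Apln, the gene of the peptide apelin, is known from tip cells of growing vessels in mice, but the sub-cluster had too few markers for a name, and its best match was 2 cardiomyocyte markers. Summed cardiomyocyte markers in the endothelial class were 825 CPM in HFpEF-FoxO1-sh, 302 CPM in HFpEF-scr and 235 CPM in Control, and their part in the Pgf values was not tested.

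**Figure D5:**
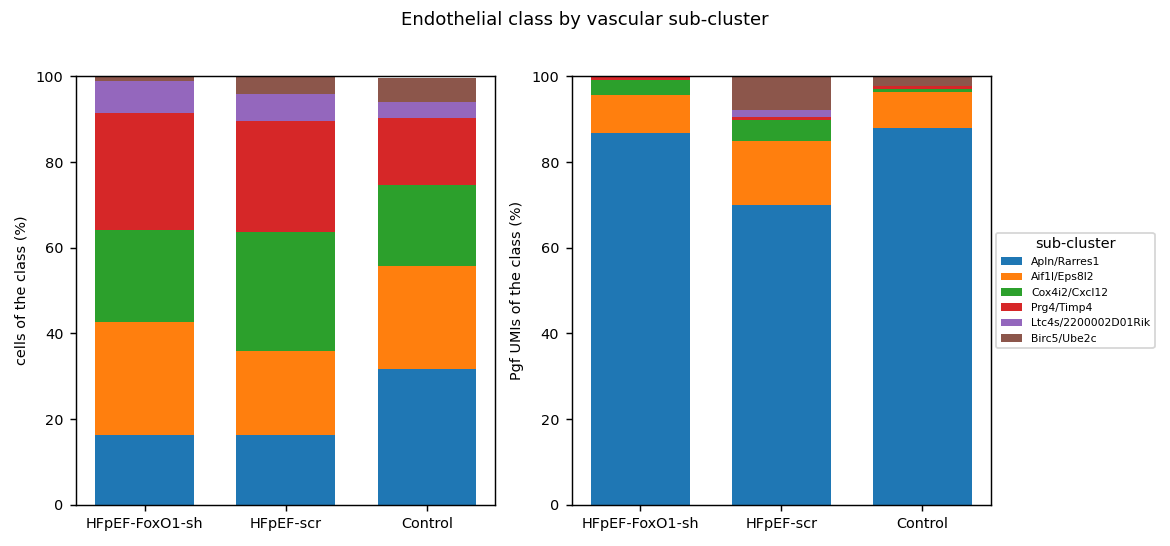
Stacked shares of the cells and of the Pgf UMIs of the endothelial class by sub-cluster in the 3 libraries. The sub-cluster led by Apln and Rarres1 is 16.4% of cells in HFpEF-FoxO1-sh, 16.3% in HFpEF-scr and 31.8% in Control, and holds 70.1% to 88.1% of the Pgf UMIs.

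In lymphatic endothelial cells 2 of 7 measured members were past the fold for HFpEF-FoxO1-sh over HFpEF-scr, beside 6.12% of all genes, and 2 of 7 for HFpEF-scr over Control, beside 5.93%. They were not the receptors that mark these cells. For HFpEF-FoxO1-sh over HFpEF-scr, Flt4 had a ratio of 1.03 (0.967 to 1.10) and Kdr of 1.07. For HFpEF-scr over Control, they had 0.998 (0.935 to 1.07) and 1.06. For Flt1, HFpEF-FoxO1-sh stood at 3.34 (2.26 to 5.06) times HFpEF-scr, and HFpEF-scr at 0.433 (0.281 to 0.652) times Control. Nrp1 was at 2.72 (1.57 to 4.92) in the first of these, and Vegfa at 0.553 (0.317 to 0.935) in the second. Few cells carried these UMIs: Flt1 was seen in 13 of 291 cells in HFpEF-FoxO1-sh, 11 of 256 in HFpEF-scr and 19 of 281 in Control, and the highest single cell held 44 UMIs in HFpEF-FoxO1-sh, 6 in HFpEF-scr and 25 in Control. In the small Ptx3 sub-cluster Flt1 had 254 CPM in HFpEF-FoxO1-sh, 100 CPM in HFpEF-scr and 129 CPM in Control, while the largest lymphatic sub-cluster had 0 CPM in HFpEF-FoxO1-sh, 2.73 in HFpEF-scr and 0 in Control. With each cell classed singly, the Flt1 ratio was 0.370 for HFpEF-FoxO1-sh over HFpEF-scr and 1.07 for HFpEF-scr over Control, and the Nrp1 ratio 0.682 for the first of these, all on the other side of 1.

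Of the 24 ratios past the fold, 18 lay outside the vessel lining, over 7 classes. In smooth muscle cells Pgf was at 1.5 (1.20 to 1.88) for HFpEF-FoxO1-sh over HFpEF-scr, 1 of 8 measured members beside 6.48% of all genes. For HFpEF-scr over Control there, Vegfd was at 0.423 (0.251 to 0.690) and Nrp2 at 1.5 (0.915 to 2.49), 2 of 8 beside 6.21%. Neutrophil Vegfa was at 2.07 (1.38 to 3.09) between HFpEF-FoxO1-sh and HFpEF-scr, and at 2.04 (1.12 to 3.98) for HFpEF-scr over Control, 1 of 2 measured members each time. The background in neutrophils was high, with 54% of genes past the fold between HFpEF-FoxO1-sh and HFpEF-scr and 22.5% between HFpEF-scr and Control, so a gene past the fold was common there.

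Monocytes had lower Kdr at 0.181 (0.0844 to 0.345), Flt1 at 0.333 (0.209 to 0.511) and Nrp2 at 0.592 for HFpEF-FoxO1-sh over HFpEF-scr, 3 of 5 members. Past the fold were 10.9% of all genes on the lower side there and 15% on either side. Summed endothelial markers in the monocyte class were 396 CPM in HFpEF-FoxO1-sh, 1002 CPM in HFpEF-scr and 752 CPM in Control, and their part in these ratios was not tested. The class was led by Cd209a and Plac8. When clustered at resolution 2, a cluster named dendritic appeared, with 166 cells in HFpEF-FoxO1-sh, 198 in HFpEF-scr and 151 in Control. The cluster named monocyte then had 84 cells in HFpEF-FoxO1-sh, 274 in HFpEF-scr and 100 in Control. The part of this mix in the ratios was not tested. For HFpEF-scr over Control, monocyte Vegfa was at 1.91 (1.25 to 3.0), 1 of 6 beside 9.45%. In B cells 3 of 4 members were lower in HFpEF-FoxO1-sh than in HFpEF-scr, beside 27.8% of genes lower and 36.7% on either side: Nrp1 at 0.0978, Pgf at 0.158 and Vegfa at 0.288. For HFpEF-scr over Control, Pgf at 0.437 was 1 of 4 beside 8.16%. The B cell class held a cluster rich in fibroblast RNA, with 16 cells in HFpEF-FoxO1-sh, 85 in HFpEF-scr and 80 in Control, and in its other cluster no Pgf UMI was found in any library. In macrophages Vegfc was at 0.636 (0.375 to 1.07) for HFpEF-FoxO1-sh over HFpEF-scr, 1 of 7 beside 5.06%, and for HFpEF-scr over Control Vegfc at 1.74 (0.937 to 3.36) and Pgf at 0.655 made 2 of 7 beside 4.87%. In erythroid cells Pgf was at 0.652 for HFpEF-scr over Control, 1 of 7 beside 8.02%, and in Schwann cells Nrp1 at 0.650 (0.449 to 0.936), 1 of 2 beside 9.3%. None of 7 erythroid, 2 Schwann and 1 T cell members passed for HFpEF-FoxO1-sh over HFpEF-scr, beside 6.64%, 13.9% and 7.6%.

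Genes that act downstream of the receptors were read from lists. Of the signal transducers of VEGF receptors, 0 of 28 measured in endothelial cells passed the fold in either comparison. Of all genes there, 6.39% passed for HFpEF-scr over Control and 7.1% for HFpEF-FoxO1-sh over HFpEF-scr. The nearest transducer was Gipc1, whose product binds the tail of Nrp1, at 0.669 (0.482 to 0.932) for HFpEF-scr over Control. In fibroblasts 1 of 31 was higher in HFpEF-scr than in Control, Nos3 at 1.84 (1.09 to 3.19) from 44 UMIs in HFpEF-scr and 23 UMIs in Control, and 0 of 31 passed for HFpEF-FoxO1-sh over HFpEF-scr, beside 3.79% of all genes in the first comparison and 4.03% in the second. Of genes that VEGF is known to induce in endothelial cells, 4 of 18 were higher in HFpEF-scr than in Control and none lower, beside 3.96% of all genes higher. They were Egr3 at 4.37 (2.32 to 9.09), Nr4a1 at 1.95 (1.53 to 2.52), Esm1 at 1.70 (1.20 to 2.46) and Icam1 at 1.60 (1.28 to 2.01). The list's median log2 ratio was 0.01, beside 0.02 for all genes. With up to 50% mitochondrial UMIs it was 0.24, beside 0.07 for all genes. There 4 of 19 genes were higher, beside 3.52% of all genes. Where the middle of the list lay thus depended on the filter. Egr3 and Nr4a1 are immediate-early genes that many other stimuli induce too, including tissue dissociation. For HFpEF-FoxO1-sh over HFpEF-scr 0 of 19 passed, beside 7.1% of all genes, and the median was -0.22, beside -0.01 for all genes.

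In endocardial cells the same list had 4 of 15 genes higher in HFpEF-scr than in Control, beside 3.15% of all genes, which were Egr3 at 3.08 (1.81 to 5.40), Dusp5 at 1.87, Angpt2 at 1.85 (1.39 to 2.48) and Nr4a1 at 1.64. Angpt2, which encodes a ligand of the receptor Tie2, was at 0.543 (0.389 to 0.750) for HFpEF-FoxO1-sh over HFpEF-scr, and Egr3 at 0.476 (0.272 to 0.811), while Nid2 was at 1.62 (1.19 to 2.22), 3 of 15 beside 5.92% of all genes. In fibroblasts 1 of 17 was lower for HFpEF-scr over Control, Angpt2 at 0.626 (0.522 to 0.750). Nos3, which is also on this list, was the 1 higher gene, beside 3.79% of all genes on either side. For HFpEF-FoxO1-sh over HFpEF-scr 0 of 17 passed there, beside 4.03%.

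Regulators that tie Vegfa to oxygen had 2 of 10 genes higher in endothelial cells of HFpEF-scr than of Control, beside 3.96% of all genes: Hif1an at 2.55 (1.38 to 5.08) and Vhl at 1.64 (0.894 to 3.18), both of which restrain the hypoxia-inducible factors. These rest on few UMIs, 58 in HFpEF-scr and 13 in Control for Hif1an. Of other targets of these factors, 2 of 11 were higher, Ddit4 at 2.05 and Pdk1 at 1.91, and 1 was lower, Adm at 0.649, beside 6.39% of all genes on either side. For HFpEF-FoxO1-sh over HFpEF-scr 0 of 11 regulators passed, and of the targets 2 of 11 were lower, Ankrd37 at 0.657 and Kdm3a at 0.664, beside 7.1% of all genes on either side. In fibroblasts, the main holders of Vegfa, 0 of 15 regulators and 1 of 13 targets, Slc2a1 at 0.569, passed for HFpEF-scr over Control, beside 3.79% of all genes. For HFpEF-FoxO1-sh over HFpEF-scr 1 of 15 regulators, Arnt2 at 0.624, and 0 of 13 targets did, beside 4.03%. Of the genes that process VEGF-C and VEGF-D or act in lymphatic vessels, 0 of 14 passed in fibroblasts in either comparison. Of all genes there, 3.79% passed for HFpEF-scr over Control and 4.03% for HFpEF-FoxO1-sh over HFpEF-scr. In endothelial cells 0 of 6 of these genes passed for HFpEF-scr over Control, beside 6.39% of all genes. There 1 of 6 was lower in HFpEF-FoxO1-sh than in HFpEF-scr, the protease gene Pcsk7 at 0.664 (0.443 to 0.977), beside 7.1% on either side. Of semaphorins and plexins that pair with neuropilins, 1 of 6 was higher in endothelial cells of HFpEF-scr than of Control, beside 3.96% of all genes, Plxna1 at 1.72 (0.992 to 3.11). In fibroblasts 1 of 10 was higher, Sema3c at 1.52 (1.47 to 1.57), beside 1.73% of all genes higher. Sema3c is a leading gene of the fibroblast cluster led by Cd248. That cluster had 1735 of 9302 fibroblasts in HFpEF-scr and 1122 of 8457 in Control, and its part in the ratio was not tested. None of 6 semaphorins and plexins in endothelial cells and 9 in fibroblasts passed for HFpEF-FoxO1-sh over HFpEF-scr, beside 7.1% and 4.03% of all genes. In endothelial cells with up to 50% mitochondrial UMIs, 0 of 11 regulators passed in either comparison. Nor did any of 7 processing genes or 6 semaphorins and plexins. Of the targets, 2 of 12 were higher and 1 lower for HFpEF-scr over Control, and 0 of 12 passed for HFpEF-FoxO1-sh over HFpEF-scr. Of all genes there, 4.39% passed in the first comparison and 4.62% in the second.

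As a description, the genes whose levels were most like each member were found over 36 points, 12 classes in 3 libraries, among 13877 genes. The points share libraries and class sizes, and the correlation of log2(CPM + 1) carries no p. The pattern of Kdr was most like that of Ushbp1 (Pearson r of 0.974) and Myct1 (0.973), that of Flt4 like Klhl4 (0.974), and that of Flt1 like Samd12 (0.934). Pgf was most like Fbln5 (0.956), Nrp2 like Gnb1 (0.937), Vegfd like Thbs3 (0.910) and Vegfc like Cx3cl1 (0.898). The gene most like Vegfb was its neighbour Dnajc4 (0.908). Vegfa and Nrp1 had the loosest matches, Sgms2 (0.827) and Kctd12b (0.823).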

How the data were processed

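The authors deposited counts: UMIs of each gene in each cell barcode, from Cell Ranger 6.1.2 with the build mm10, per the submitters' processing notes. The annotation release is not given in the sources used here. The rest was computed from these counts with Python 3.11.15, scanpy 1.11.5, numpy 2.4.6, scipy 1.17.1, pandas 2.3.3 and igraph 0.11.9. Kept barcodes had 500 UMIs and 300 genes or more, with mitochondrial UMIs up to 20%, and doublets marked by Scrublet at an expected rate of 12% were removed (3.09% in HFpEF-FoxO1-sh, 2.29% in HFpEF-scr and 1.41% in Control). This is below the expected rate, so doublets may remain. Library totals were 144561934 UMIs in HFpEF-FoxO1-sh, 154385813 in HFpEF-scr and 146230530 in Control. Pairs of libraries shared 238 to 335 barcodes, at most 1.01% of a library.

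Cells were clustered with the Leiden method (2000 variable genes, 30 components, 15 neighbours, resolution 1, seed 0), leaving the 10 genes out of the variable genes and the marker lists. A cluster took a class from at least 3 markers among its top 50 genes by fold. Clusters without a name were compared a second time with named cells other than fibroblasts, and then named where at least 50% of a class's markers were 2-fold higher. Both steps were chosen after the clusters were seen, and names may differ from the study's own. For each library, CPM is the sum of a gene's UMIs in a class over all UMIs of that class. Intervals are exact Poisson for levels and exact conditional binomial for ratios, at 95%, and cover counting error only, since UMIs of 1 cell are not independent. Classes needed 50 kept cells in every library and a member or gene 50 UMIs over both libraries. The ratios and their intervals were tested on Poisson counts simulated from the Control endothelial sums, with known folds. These counts had no variation between cells or libraries, so the test cannot show how the intervals hold against such variation.

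The members and gene lists were chosen with earlier results of these data known. All 10 members are named, with up to 4 genes per list by size of the log2 ratio, the genes most like each member and the leading genes of clusters. Motifs were searched on both strands in windows of 250 bases from RefSeq. Alternatives were cell filters, class definitions, scalings, thinning and count minimums.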

Additional observations from a re-analysis of the deposited data

Results flagged for a closer look

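Some members had ratios past 1.5-fold on opposite sides in different classes under the same comparison. With 1 library per group, none of these differences between classes was tested.

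For HFpEF-FoxO1-sh over HFpEF-scr, Flt1 was at 3.34 in lymphatic endothelial cells and at 0.333 in monocytes. Nrp1 was at 2.72 in lymphatic endothelial cells and at 0.0978 in B cells. Pgf was at 1.79 in endothelial cells and at 0.158 in B cells, and Vegfa at 2.07 in neutrophils and at 0.288 in B cells. For HFpEF-scr over Control, Vegfa was at 2.04 in neutrophils and at 0.553 in lymphatic endothelial cells. The B cell class was made up differently in the libraries: the cluster rich in fibroblast RNA had 16 of its cells in HFpEF-FoxO1-sh and 85 in HFpEF-scr, and the other cluster 704 in HFpEF-FoxO1-sh and 128 in HFpEF-scr.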

How the results depend on the processing

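No paired analysis was possible because each group had 1 library, and for the same reason no replicate could be left out. Of 1398 ratios recomputed under alternatives, 1218 stayed inside the interval of the value reported, 116 moved outside it on the same side of 1 and 64 moved outside it to the other side of 1. Of 24 ratios past the fold, 6 stayed past it on the same side under every alternative run for them. Of ratios past the fold, 10 values changed side: neutrophil Vegfa at 0.788 for HFpEF-scr over Control with up to 50% mitochondrial UMIs, and smooth muscle Pgf at 0.70 for HFpEF-FoxO1-sh over HFpEF-scr with at most 10%. With each cell classed singly, lymphatic Flt1 was at 0.370 for HFpEF-FoxO1-sh over HFpEF-scr and 1.07 for HFpEF-scr over Control, lymphatic Nrp1 at 0.682 and monocyte Nrp2 at 1.04 for HFpEF-FoxO1-sh over HFpEF-scr, and monocyte Vegfa at 0.863 for HFpEF-scr over Control. With doublets kept, macrophage Pgf was at 1.29 for HFpEF-scr over Control. Without the Apln sub-cluster, an alternative chosen after seeing the data, endothelial Pgf was at 0.763 for HFpEF-FoxO1-sh over HFpEF-scr and 1.08 for HFpEF-scr over Control. Over all ratios, 23 values changed side where the reported interval excluded 1. Among those not past the fold, endothelial Vegfc was at 0.786 with up to 50% mitochondrial UMIs and 0.978 with cells classed singly, and endocardial Nrp2 at 1.02 with at most 10%, for HFpEF-FoxO1-sh over HFpEF-scr. Lymphatic Nrp2 was at 0.998 after thinning in the same comparison. For HFpEF-scr over Control, endocardial Kdr was at 0.993 with at most 10% mitochondrial UMIs and 0.942 with cells classed singly, endothelial Flt1 at 0.890 with up to 50% and 0.941 without the Apln sub-cluster, and fibroblast Vegfa at 0.986 with each cluster weighted equally. The removal of the Apln sub-cluster takes out the cells that hold most endothelial Pgf UMIs and leaves few. The cause of these changes of side was not tested.

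In endothelial cells, the count of members past the fold for HFpEF-scr over Control was 0 with at most 10% mitochondrial UMIs, after thinning, without the Apln sub-cluster and at 2-fold. After thinning Pgf had too few UMIs to be counted. The count was also 1 with up to 50% mitochondrial UMIs and with cells classed singly, but the member was Vegfa in the first and Vegfc in the second, both higher, and not Pgf. For HFpEF-FoxO1-sh over HFpEF-scr it was 2 with up to 50% mitochondrial UMIs, with cells classed singly and with no minimum of UMIs, 4 with at most 10% mitochondrial UMIs, from 34 cells in HFpEF-FoxO1-sh and 34 in HFpEF-scr and without Pgf, and 0 after thinning, without the Apln sub-cluster and at 2-fold. In fibroblasts it was 1 for HFpEF-scr over Control with at most 10% mitochondrial UMIs and with doublets kept, and 1 for HFpEF-FoxO1-sh over HFpEF-scr with at least 20 UMIs and with no minimum. With up to 50% mitochondrial UMIs, 4.39% of all genes passed in endothelial cells for HFpEF-scr over Control and 4.62% for HFpEF-FoxO1-sh over HFpEF-scr. The share of all genes was not computed under the other alternatives, so those counts have no background to be read against. Centring on the median gene shifted ratios by over 0.1 on the log2 scale only in B cells, by -0.16. Members with few UMIs per class are limited by depth, and 3' counts do not separate isoforms.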

Other observations

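When cells with up to 50% mitochondrial UMIs were kept and clustered again, a cardiomyocyte-like class appeared, with 81 cells in HFpEF-FoxO1-sh, 38 in HFpEF-scr and 64 in Control. These cells had the highest Vegfb level of any class at that limit, with 424 CPM in HFpEF-FoxO1-sh, 227 CPM in HFpEF-scr and 279 CPM in Control, from 127 UMIs in HFpEF-FoxO1-sh, 34 in HFpEF-scr and 93 in Control. Their Vegfa was at 66.8 CPM in HFpEF-FoxO1-sh, 73.3 CPM in HFpEF-scr and 50.9 CPM in Control. With 38 cells in HFpEF-scr the class was too small for the comparison of ratios. Within the limit of 20%, a cluster named cardiomyocyte was also found at resolution 2, with 105 cells in HFpEF-FoxO1-sh, 24 in HFpEF-scr and 31 in Control.

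At the same limit, the endothelial class grew to 1024 cells in HFpEF-FoxO1-sh, 1618 in HFpEF-scr and 1648 in Control, and its Kdr level was 1343 CPM in HFpEF-FoxO1-sh, 1346 CPM in HFpEF-scr and 1304 CPM in Control. The arterial class, with 297 cells in HFpEF-FoxO1-sh, 417 in HFpEF-scr and 434 in Control, had 199 CPM of Vegfc in HFpEF-FoxO1-sh, 203 CPM in HFpEF-scr and 178 CPM in Control. Its Nrp2 ratio was 0.667 (0.552 to 0.805) for HFpEF-FoxO1-sh over HFpEF-scr. Pericytes, which wrap capillaries, had Nrp1 in HFpEF-FoxO1-sh at 1.23 (1.03 to 1.48) times HFpEF-scr, and in HFpEF-scr at 0.831 (0.695 to 0.989) times Control.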
